A study of Mus musculus with 13 samples.

Results

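Tubular injury and dedifferentiation markers are genes that kidney tubule cells switch on when they are damaged or lose their mature state. The set described here holds 10 genes, chosen by name: Havcr1, Krt20, Krt8, Krt18, Vcam1, Spp1, Clu, Cdkn1a, Sox9 and Vim. Of these, 9 had a probe set that the array annotation assigned to that symbol alone, out of 22180 genes measured this way, and Spp1 is not analysed here. Where a gene had several probe sets (Krt18 and Vim), the one with the highest mean over all arrays gave its value, and the other is given beside it.

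A mature proximal tubule cell is built for reabsorption and carries little of these proteins. After injury from ischaemia, toxins or sepsis, surviving cells spread over the denuded basement membrane, flatten, and start to make simple epithelial keratins, vimentin, adhesion molecules and the transcription factor SOX9, while their transporters fade. Havcr1 encodes KIM-1, a surface receptor through which injured tubule cells take up dying neighbours, and it is the classical urinary and tissue marker of proximal tubule injury. Cells that repair well lose these markers again, whereas cells that keep VCAM1 are regarded as failing to repair.

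The genes were read from the S1 segment, the first stretch of the proximal tubule, taken from C57Bl/6J males and hybridised to Affymetrix whole-transcript arrays, 1 for each of the 13 samples. The control group (n = 4) received saline. The LPS group (n = 4) received 1 intraperitoneal dose of lipopolysaccharide, the endotoxin of Gram-negative bacteria (5 mg/kg), 24 h before study. The LPS/LPS group (n = 5) was preconditioned with 0.25 mg/kg and given 5 mg/kg 24 h later, and this second dose was also 24 h before study. The labels give no allele, no transgene and no age, and how the segments were isolated is not given in the sources used here. Whether the arrays of a group stand for different animals is not stated either, and the p-values speak for the spread among these arrays, which may be technical. Because bulk RNA was measured, fewer cells of a type and less RNA per cell cannot be told apart.

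All values are RMA log2 levels, in which a difference of 1 is a doubling, and folds are given on that scale. Array medians ranged from 3.56 to 3.68. No detection calls were at hand, so 1105 olfactory receptor genes were ranked by mean level and their 95th percentile, 4.77, served as a background reference. Only Krt8 and Vim had a mean over the 13 arrays above it, so 2 of 9 markers were measured above that reference, beside 2207 of all 22180 genes. Differences of the other 7 markers may be compressed. The arrays also differed in how widely their values spread: 7 arrays (control 1 and 4, LPS 2, 3 and 4, LPS/LPS 1 and 5) had an SD of log2 values at or above the median of 1.35 and are called wide here, and the other 6 narrow. Slc34a1, the phosphate transporter of the early proximal tubule, averaged 11.23 ± 0.23 (SD, n = 4) in controls, 10.04 ± 0.64 (n = 4) after LPS and 9.23 ± 0.73 (n = 5) in LPS/LPS. Slc5a2, the glucose transporter of the same segment, lay below the background reference in all group means, at 4.50, 4.22 and 4.13.

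One array stood apart on genes of another tubule segment. The linear levels of 12 distal nephron markers, which stand for loop, distal tubule and collecting duct, summed to 709 on LPS replicate 3, against 189 to 215 on the other LPS arrays, 190 to 277 in controls and 186 to 234 in LPS/LPS. Umod (uromodulin) read 8.36 there, with 6.77 as the next highest array, and Slc12a1 (the loop's sodium-potassium-chloride cotransporter) read 6.79, with 4.20 as the next highest. Of the 12 markers, 7 had their highest value on this array, as did 8.89% of all genes. Values without this array are given beside the results that moved most on leaving it out.

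The stretch upstream of the start of a gene is where a part of its transcription factors bind, and it is shown for Havcr1 and Krt20 because the results turn on these genes. The windows are the 250 bases before an annotated RefSeq start on assembly GRCm38.p6, and 6 of the 9 measured markers had at least 1 window, 9 windows in all. Both strands were searched for short motifs, and the share of all 32851 windows of that length that hold each one is given with it. The STAT motif was TTCNNNGAA, in 7.02% of windows. For AP-1 the letters were TGANTCA, in 6.75%. The C/EBP motif was TTGCNNAA, in 9.56%. For the CRE core they were TGACGT, in 6.47%, and the TATA box was searched as TATAAA, in 12.4%. Havcr1 has 3 such windows. The one printed is chr11:46750261-46750510 on the plus strand, and the other 2 held none of these motifs. Its capitals mark the CRE core, beginning 241 bases before the start, and the C/EBP letters read on the opposite strand, at 46 bases before it. The Krt20 window is chr11:99438154-99438403 on the minus strand, and its capitals mark the TATA box 29 bases before the start. A TATA box also stood 32 bases before the start of Vim, so that 3 of 9 windows held any of the motifs. These matches describe letters in a window and no measured binding.
Havcr1: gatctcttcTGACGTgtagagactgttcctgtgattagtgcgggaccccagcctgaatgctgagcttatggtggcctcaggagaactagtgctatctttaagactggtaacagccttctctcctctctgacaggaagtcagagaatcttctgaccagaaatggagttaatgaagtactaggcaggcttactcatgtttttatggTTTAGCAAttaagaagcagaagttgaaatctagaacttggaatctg
Krt20: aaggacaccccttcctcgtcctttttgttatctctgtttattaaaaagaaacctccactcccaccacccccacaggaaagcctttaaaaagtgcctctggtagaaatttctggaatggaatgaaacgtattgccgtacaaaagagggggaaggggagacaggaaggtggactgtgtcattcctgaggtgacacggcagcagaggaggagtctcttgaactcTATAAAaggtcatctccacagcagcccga

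Havcr1, the KIM-1 gene, was higher after LPS than in saline controls by a log2 difference of 0.76, and it was near control levels in preconditioned mice. Control arrays read 3.34, 2.84, 3.34 and 3.27. LPS arrays read 3.41, 4.14, 3.87 and 4.41. LPS/LPS arrays read 3.48, 3.50, 3.41, 3.26 and 3.04. Every LPS array lay above every control array, but LPS replicate 1 cleared the highest control by little and sat inside the LPS/LPS range. The group means were 3.20 ± 0.24 (SD, n = 4), 3.96 ± 0.43 (n = 4) and 3.34 ± 0.19 (n = 5), which is 1.69-fold for LPS over control. Every Havcr1 reading lay below the background reference of 4.77.

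In limma's fit over all genes the Havcr1 difference between LPS and control was 0.76 (SE 0.20, 95% interval 0.33 to 1.19) with an adjusted p of 0.429, so it did not pass the threshold of 0.05. LPS/LPS lay below LPS by 0.62 (SE 0.19, 95% interval -1.03 to -0.21, adjusted p = 0.371). LPS/LPS and control differed by 0.14, with an interval from -0.27 to 0.55 and an adjusted p of 0.991. Against the other genes the spread of Havcr1 was ordinary, with a residual SD of 0.295 at the 56.5th percentile. Within the wide arrays LPS exceeded control by 0.84 and LPS/LPS lay 0.89 below LPS (difference -0.89). In the narrow class, where LPS is replicate 1 alone, the values were 0.31 and -0.014. Without LPS replicate 1 the difference from control was 0.95, the highest of the leave-one-out values, and without LPS replicate 4 it was 0.61, the lowest.

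Krt20, a keratin of the intestinal and urothelial surface that injured proximal tubule also makes, had the largest difference between LPS and control among the 9 markers. Control arrays read 3.53, 3.14, 2.91 and 3.58. LPS arrays read 4.78, 4.66, 3.58 and 4.35. LPS/LPS arrays read 3.58, 3.14, 3.85, 3.58 and 3.84. LPS replicates 1, 2 and 4 lay above every array of both other groups, while LPS replicate 3 lay at the top of the control range. Only LPS replicate 1 lay above the background reference of 4.77. The same value, 3.58, stood on 4 arrays (control 4, LPS 3, LPS/LPS 1 and LPS/LPS 4) to all deposited digits. Such repeated values occur on 2 or more arrays in 40.2% of all probe sets, and among the markers also in Krt18, Vcam1 and Vim.

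Krt20 averaged 3.29 ± 0.32 (SD, n = 4) in controls, 4.34 ± 0.54 (n = 4) after LPS and 3.60 ± 0.29 (n = 5) in LPS/LPS. The LPS difference of 1.05 (SE 0.25, 95% interval 0.51 to 1.59) corresponds to 2.07-fold, and limma's adjusted p was 0.333. LPS/LPS lay below LPS by 0.74 (SE 0.24, 95% interval -1.26 to -0.23, adjusted p = 0.407). LPS/LPS exceeded control by 0.31, with an interval from -0.20 to 0.82 and an adjusted p of 0.987. Krt20 spread more within groups than most genes, with a residual SD of 0.389 at the 79.6th percentile. Its LPS difference was 0.64 in the wide and 1.75 in the narrow arrays, the reverse order of Havcr1, and 1.31 without LPS replicate 3. The narrow value again rests on LPS replicate 1, which was low for Havcr1 and the highest array for Krt20.

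**Figure D1:**
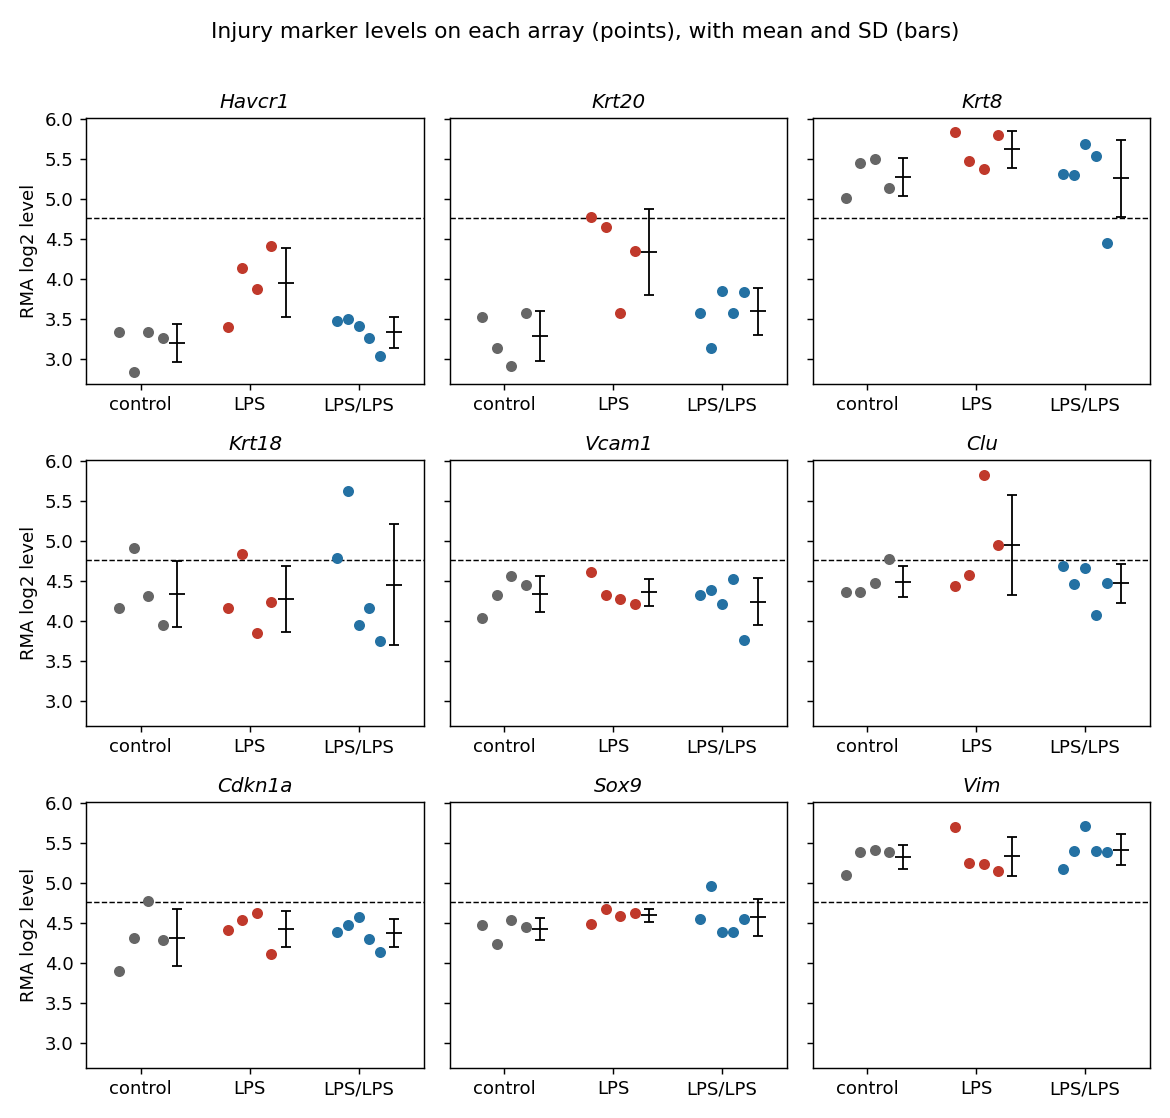
RMA log2 level of the 9 measured injury and dedifferentiation markers on each array (points) with the group mean (bar), for control (n = 4), LPS (n = 4) and LPS/LPS (n = 5). Havcr1 and Krt20 are the panels in which the LPS points shift upward most, with means of 3.96 against 3.20 and 4.34 against 3.29. Smaller upward differences stand in Clu (0.46), Krt8 (0.35) and Sox9 (0.17), while the Vcam1 means are 4.35, 4.36 and 4.25.

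Havcr1 and Krt20 were compared across the 13 arrays, as 1 of 3 pairs correlated. Pearson's r was 0.535 (permutation p = 0.0582, adjusted 0.175) and Spearman's rho was 0.354 (permutation p = 0.233, adjusted 0.420). Without the 2 arrays farthest from the Havcr1 median, LPS replicates 4 and 2, r was 0.124. Dropping them also narrows the Havcr1 range, which can lower r, so this value does not show what the relation rests on. Leaving out 1 array gave 0.40 to 0.681. Once each gene was centred on its group means, r was -0.17. In the wide arrays r was 0.712 (n = 7) and in the narrow ones 0.297 (n = 6). No order of the arrays common to both genes was detectable inside the groups.

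**Figure D2:**
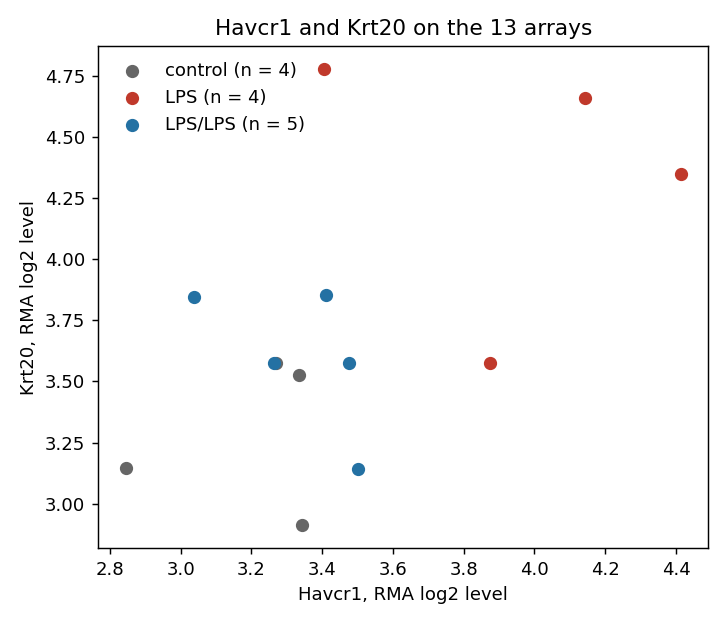
Krt20 against Havcr1, both as RMA log2 level, 1 point per array, coloured by group (control and LPS/LPS replicate 4 nearly coincide). LPS replicates 2 and 4 lie at the upper right, LPS replicate 1 is high only for Krt20 and LPS replicate 3 is above the controls only for Havcr1. The 9 arrays of the other groups reach at most 3.85 for Krt20 and 3.50 for Havcr1.

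Krt8 and Krt18 form the keratin pair of simple epithelia, which line collecting ducts in the healthy kidney and appear in injured proximal tubule. Krt8 read 5.02, 5.45, 5.50 and 5.14 in controls. It read 5.84, 5.48, 5.38 and 5.81 after LPS, and 5.31, 5.30, 5.70, 5.55 and 4.45 in LPS/LPS. LPS replicates 1 and 4 were the highest 2 arrays of all, LPS replicates 2 and 3 lay among the controls, and LPS/LPS replicate 5 was the lowest of all. Group means were 5.28 ± 0.23, 5.63 ± 0.23 and 5.26 ± 0.48. LPS exceeded control by 0.35 (SE 0.23, 95% interval -0.15 to 0.85, adjusted p = 0.822). LPS/LPS lay below LPS by 0.37 (SE 0.22, adjusted p = 0.670), and by 0.16 (difference -0.16) without LPS/LPS replicate 5.

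Krt18, the partner, showed no such pattern and the widest spread of the markers. Its main probe set read 4.17, 4.92, 4.31 and 3.96 in controls, 4.17, 4.84, 3.85 and 4.25 after LPS, and 4.79, 5.63, 3.95, 4.17 and 3.76 in LPS/LPS. The groups overlapped throughout, and LPS/LPS replicate 2 was the highest array. Its residual SD of 0.578 lay at the 93.8th percentile of all genes. LPS and control differed by -0.062 (SE 0.36, 95% interval -0.83 to 0.71, adjusted p = 0.981). LPS/LPS exceeded control by 0.12, and without LPS/LPS replicate 2 that difference was -0.17. The second Krt18 probe set correlated with the first at r = 0.282 over the 13 arrays and gave differences of 0.20 for LPS and 0.24 for LPS/LPS, each against control, and 0.04 for LPS/LPS against LPS.

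A relation between the 2 keratins was not detectable: over the 13 arrays Pearson's r was 0.16 (permutation p = 0.588, adjusted 0.588) and Spearman's rho was 0.0825 (permutation p = 0.789, adjusted 0.789). Without LPS/LPS replicate 5 and control replicate 1, the arrays farthest from the Krt8 median, r was -0.299. Within the 7 wide arrays r was 0.502, and within the 6 narrow ones it was -0.815 (exact permutation p = 0.0431, adjusted 0.129). Spearman's rho was 0.607 in the wide arrays and -0.943 in the narrow ones (exact permutation p = 0.0167, adjusted 0.05). The 2 classes thus had opposite signs.

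Clu encodes clusterin, a secreted chaperone that injured tubules release and that distal segments also make. Clu read 4.37, 4.37, 4.48 and 4.78 in controls, 4.45, 4.59, 5.84 and 4.95 after LPS, and 4.69, 4.47, 4.67, 4.08 and 4.48 in LPS/LPS. LPS replicate 3 stood far above every other array, LPS replicate 4 lay just above the controls, and the other LPS arrays lay inside the control range. The means were 4.50 ± 0.19, 4.96 ± 0.62 and 4.48 ± 0.24. LPS exceeded control by 0.46 (SE 0.25, 95% interval -0.08 to 1.00, adjusted p = 0.781), and LPS/LPS lay below LPS by 0.48 (SE 0.24, 95% interval -0.99 to 0.04, adjusted p = 0.603). Without LPS replicate 3 these differences were 0.16 and -0.18. LPS replicate 3 is the array whose 12 distal markers summed to 709, and any part of distal cells in the Clu value was not tested. On that array Havcr1 read 3.87, above every control, and Krt20 read 3.58, at the top of the control range. Neither gene was at its highest there, and such a part in their values was not tested either.

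**Figure D3:**
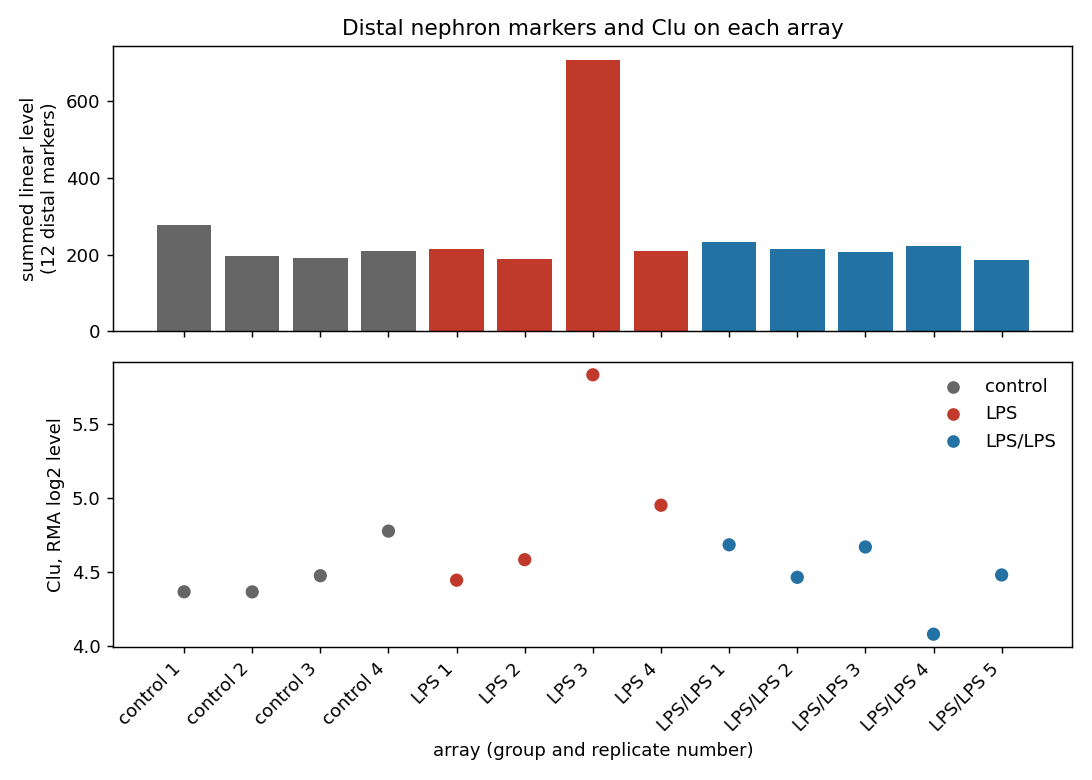
Summed linear level of the 12 distal nephron markers (bars, upper panel) and Clu as RMA log2 level (points, lower panel) on each array, coloured by group. LPS replicate 3 is the highest array in both panels, with Clu at 5.84 and a marker sum of 709. The other 12 arrays have sums of 186 to 277 and Clu levels of 4.08 to 4.95.

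Vcam1 encodes an adhesion molecule for integrin-bearing leukocytes, made by activated endothelium and by tubule cells that fail to repair. It read 4.04, 4.32, 4.57 and 4.45 in controls, 4.61, 4.32, 4.28 and 4.22 after LPS, and 4.32, 4.39, 4.22, 4.53 and 3.76 in LPS/LPS. The 3 groups overlapped, with LPS replicate 1 highest and LPS/LPS replicate 5 lowest. LPS and control differed by 0.015 (SE 0.18, 95% interval -0.36 to 0.39, adjusted p = 0.989), and LPS/LPS and control by -0.099 (SE 0.17). The interval thus leaves out an LPS difference above 0.39, on a probe set whose mean lay below the background reference. The summed level of 10 endothelial markers was 149 to 169 in controls, 174 to 209 after LPS and 169 to 189 in LPS/LPS. Of these 10 genes, 1 lay above the reference, beside 2207 of all 22180 genes.

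Sox9, a transcription factor of tubule progenitors that marks regenerating proximal cells, was the least variable marker, with a residual SD of 0.172 at the 11.7th percentile. Controls read 4.48, 4.24, 4.55 and 4.45. LPS arrays read 4.49, 4.68, 4.59 and 4.63, and LPS/LPS arrays read 4.55, 4.97, 4.40, 4.39 and 4.55. LPS replicates 2, 3 and 4 lay above the control range, LPS replicate 1 fell inside it, and LPS/LPS replicate 2 was the highest of all. LPS exceeded control by 0.17 (SE 0.14, 95% interval -0.14 to 0.48, adjusted p = 0.862) and LPS/LPS exceeded control by 0.14 (SE 0.14). Without LPS/LPS replicate 2 the latter was 0.045.

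Vim encodes vimentin, the intermediate filament of mesenchymal cells that proximal cells acquire when they dedifferentiate. Its main probe set read 5.10, 5.39, 5.42 and 5.40 in controls, 5.70, 5.25, 5.24 and 5.15 after LPS, and 5.18, 5.40, 5.72, 5.40 and 5.39 in LPS/LPS. LPS replicate 1 and LPS/LPS replicate 3 were high, control replicate 1 was low, and the groups overlapped. LPS and control differed by 0.012 (SE 0.16, 95% interval -0.32 to 0.34, adjusted p = 0.990), and LPS/LPS and control by 0.093 (SE 0.15). The second Vim probe set gave differences of -0.04 in both comparisons, but it ran against the first over the 13 arrays (r = -0.438), so the within-group order of Vim is uncertain. The summed level of 10 fibroblast and mural markers was 169 to 199 in controls, 178 to 297 after LPS (178 to 204 without LPS replicate 3) and 193 to 223 in LPS/LPS.

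Cdkn1a encodes p21, the cyclin-dependent kinase inhibitor that arrests damaged cells. It read 3.90, 4.32, 4.77 and 4.29 in controls, 4.42, 4.54, 4.63 and 4.11 after LPS, and 4.39, 4.48, 4.58, 4.30 and 4.14 in LPS/LPS. The controls spanned the whole range of the other groups. LPS and control differed by 0.10 (SE 0.18, 95% interval -0.28 to 0.49, adjusted p = 0.936).

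Over the whole set, 0 of the 9 measured markers passed limma's test after Benjamini-Hochberg adjustment between LPS and control, where 0% of all genes did. At an unadjusted p under 0.05, 2 markers were higher (Havcr1 and Krt20) and 0 lower, beside 3.49% and 2.95% of all genes. Havcr1 was the only marker whose LPS arrays all lay above the controls, as 1.55% of all genes did. The difference was positive for 8 of 9 markers, against 47.1% of all genes, and the markers' median difference was 0.17, against -0.02 over all genes.

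By limma's F-test over the 3 groups 0 of 9 markers passed, beside 0.0631% of all genes. In LPS/LPS against control, 0 of 9 markers passed the threshold, beside 0.00902% of all genes, and 0 had an unadjusted p under 0.05, beside 4.7% of all genes. The markers' median difference was 0.09 beside 0.03 over all genes, and 6 of 9 were positive, beside 55.8%. Between LPS/LPS and LPS, 0 of 9 passed, beside 0.0631% of all genes. At an unadjusted p under 0.05, 2 were lower in LPS/LPS, again Havcr1 and Krt20, beside 4.49% of all genes, and 0 were higher, beside 4.13%. The median was -0.11 beside 0.05 over all genes, with 2 of 9 markers positive beside 59.3%. The 3 comparisons share samples, and the LPS values of Havcr1 and Krt20 enter both LPS against control and LPS/LPS against LPS. A higher level in LPS than in both other groups, at an unadjusted p under 0.05 each, was found for 431 genes (1.94%), among them these 2 markers.

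**Figure D4:**
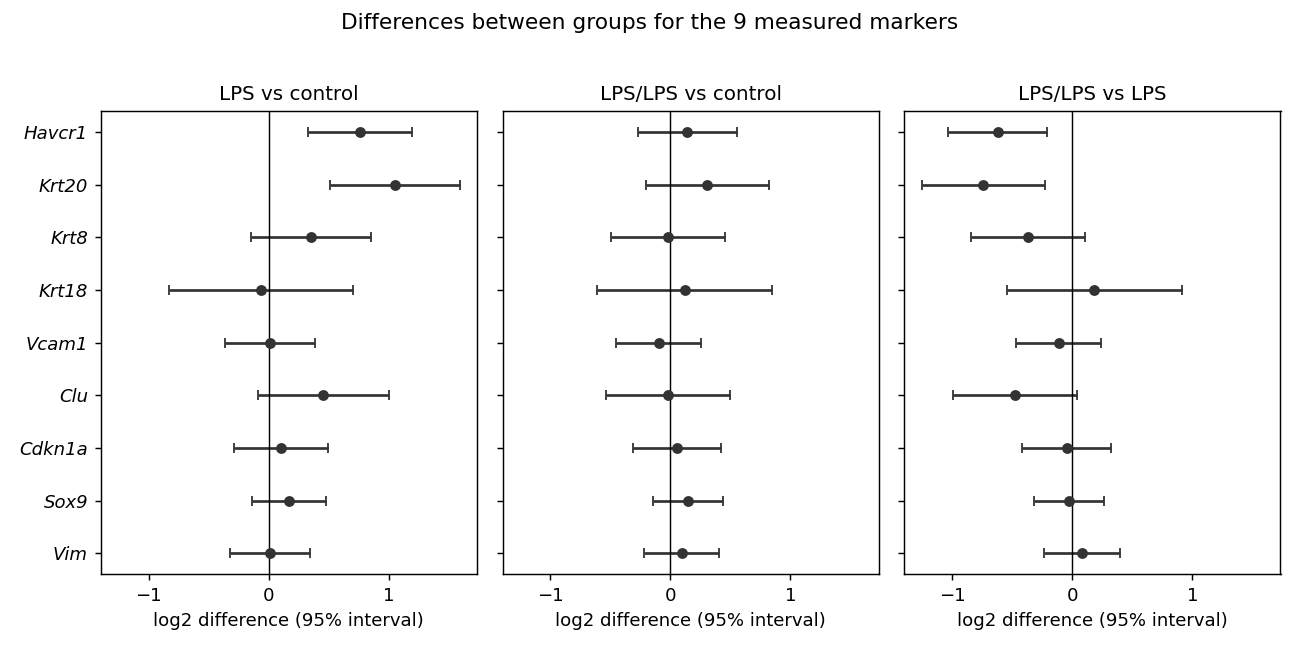
Log2 difference of each measured marker in the 3 comparisons, with limma's 95% confidence interval as the bar and 0 as the reference line. For LPS vs control the intervals of Havcr1 (0.33 to 1.19) and Krt20 (0.51 to 1.59) lie above 0, for LPS/LPS vs LPS they lie below 0, and for LPS/LPS vs control all 9 intervals include 0.

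The number of markers above the highest control array differed between the LPS arrays. It was 5 of 9 on LPS replicates 1 and 4 and 3 of 9 on LPS replicates 2 and 3, while 24.3%, 22%, 16.6% and 18.8% of all genes were above their highest control on the same arrays. In LPS/LPS the count was 2, 3, 4, 1 and 2 for replicates 1 to 5, beside 20.3%, 23.2%, 23.7%, 28.5% and 20% of all genes. The markers above control were not the same on each LPS array: replicate 3 had Havcr1, Clu and Sox9 but not Krt20, and replicate 1 had Havcr1, Krt20, Krt8, Vcam1 and Vim.

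Other genes that injured tubules make were read from a list of 24, of which 23 were measured. None passed the adjusted threshold in the 3 comparisons, while some had an unadjusted p under 0.05. These were 3 higher in LPS against control, where 3.49% of all genes were, and 2 higher in LPS/LPS against control, beside 2.62%. In LPS/LPS against LPS 3 were lower, beside 4.49%. With all arrays, in no comparison did the list have such a gene on the opposite side. The list's median difference was 0.20 for LPS vs control, beside -0.02 over all genes, and 0.13 without LPS replicate 3. Without that array 4 were higher and 1 lower at an unadjusted p under 0.05, beside 3.38% and 2.43% of all genes. Lcn2, the gene of the iron-chelator carrier NGAL and the other widely used injury marker, averaged 3.81 ± 0.20 (SD, n = 4) in controls, 5.61 ± 0.71 (n = 4) after LPS and 4.57 ± 0.39 (n = 5) in LPS/LPS. Its LPS arrays all lay above the controls, and the difference of 1.80 (SE 0.30) had an adjusted p of 0.0638. On leaving out 1 array this p ranged from 0.00271 (without LPS replicate 1) to 0.261, and in the narrow arrays, where LPS is replicate 1 alone, the difference was 0.81 with an adjusted p of 0.744. Il34, a macrophage growth factor made by injured tubules, was 1.13 (SE 0.30) higher after LPS, with an adjusted p of 0.422. Igfbp7, a secreted marker of tubular cell-cycle arrest, differed by 0.47 between LPS and control, but by 0.04 without LPS replicate 3, and by -1.32 between LPS/LPS and LPS (adjusted p = 0.415), which was -0.89 without that array.

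Keratins and other intermediate filament genes outside the set were measured for 14 of 15. In LPS against control their median difference was 0.02. At an unadjusted p under 0.05, 1 of them was higher and 0 lower, beside 3.49% and 2.95% of all genes. That gene was Krt17, a keratin of stressed epithelia, at 0.47 (SE 0.21, adjusted p = 0.761). Of 20 p53 targets and cell-cycle inhibitors, which act in the same arrest as Cdkn1a, 17 were measured and their median was -0.02. Trp53inp1, a stress-response p53 target, had the lowest p among them, with a difference of 0.63 (SE 0.27, adjusted p = 0.725), or 0.38 without LPS replicate 4. Of 15 proliferation genes, 14 were measured with a median of 0.03, or -0.037 without LPS replicate 3. Ccnd1, the cyclin of cell-cycle entry, was 0.75 (SE 0.28) higher after LPS, with an adjusted p of 0.693. Without LPS replicate 3 that difference was 0.43, and in the narrow arrays it was 0.0038. None of these 3 lists had a member past the adjusted threshold in any of the 3 comparisons.

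Transcription factors of nephron development, the state that dedifferentiated cells partly return to, were measured for 9 of 10. Pax8, which specifies kidney epithelium and returns in regenerating tubules, averaged 3.80 ± 0.26 (SD, n = 4) in controls, 4.84 ± 0.39 (n = 4) after LPS and 3.77 ± 0.23 (n = 5) in LPS/LPS. Its LPS arrays lay above all arrays of both other groups, with differences of 1.05 (SE 0.20, adjusted p = 0.125) from control and -1.07 (SE 0.19, adjusted p = 0.0699) for LPS/LPS against LPS. On leaving out 1 array the adjusted p of the latter ranged from 0.0293 (without LPS replicate 1) to 0.213, and it reached 0.846 under the other alternatives. Wt1, a podocyte factor of the same list, differed by -0.44 (SE 0.19, adjusted p = 0.738) between LPS and control. Among 10 measured immediate early genes Klf6, a zinc-finger factor induced by injury, was 1.47 (SE 0.29) higher after LPS with no overlap and an adjusted p of 0.125. The list medians for LPS vs control were -0.11 and -0.16, on the other side of 0 from Pax8 and Klf6.

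Receptors and ligands of the markers' proteins were measured for 11 of 11 genes. Itgb1 and Itgav, integrin chains that bind osteopontin and, for Itgb1, VCAM1, differed by 0.29 and 0.44 between LPS and control, and by -0.38 and -0.43 between LPS/LPS and LPS, with adjusted p-values from 0.527 to 0.801. Itgb3, the partner of Itgav in another osteopontin receptor, went the other way, with -0.45 (SE 0.17, adjusted p = 0.693) between LPS and control, and with -0.29 without LPS replicate 3. The Itgb1 difference was 0.18 without LPS replicate 2. Lrp2, the megalin gene, whose product takes up clusterin and many filtered proteins, differed by 0.13 between LPS and control. Its sign changed under 7 of 26 alternatives: without LPS replicate 3 the difference was -0.53, and in the narrow arrays it was -1.14. Between LPS/LPS and LPS the Lrp2 difference was -1.42 (adjusted p = 0.504), and -0.75 without LPS replicate 3.

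Mature proximal tubule genes, which fade when cells dedifferentiate, were measured for 22 of 25. Between LPS and control their median difference was -0.10, with 1 higher and 3 lower at an unadjusted p under 0.05, beside 3.49% and 2.95% of all genes. Without LPS replicate 3 that median was -0.27, with 1 higher and 5 lower, beside 3.38% and 2.43% of all genes. Between LPS/LPS and control the median was -0.53, with 0 higher and 10 lower, beside 2.62% and 2.07% of all genes. Of the 22, 2 were positive there, beside 55.8% of all genes. None passed the adjusted threshold. Slc34a1 differed by -1.19 (SE 0.37, adjusted p = 0.551) for LPS and by -2.01 (SE 0.35, adjusted p = 0.197) for LPS/LPS, both against control. The lower median of mature genes was thus in LPS/LPS, in which Havcr1 and Krt20 lay near control. Over the 13 arrays Havcr1 and Slc34a1 had a Pearson's r of -0.216 (permutation p = 0.478, adjusted 0.588) and a Spearman's rho of -0.324 (permutation p = 0.280, adjusted 0.420). Without the 2 arrays farthest from the Havcr1 median r was -0.17, and it was -0.421 in the wide and -0.681 in the narrow arrays.

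Markers of other cells that a tubule preparation can hold were read beside these results. The counts above the background reference stand beside 2207 of all 22180 genes. The summed level of 12 macrophage and monocyte markers was 196 to 208 in controls, 194 to 226 after LPS (194 to 202 without LPS replicate 3) and 212 to 241 in LPS/LPS, with 1 of 12 above the background reference. Of the podocyte markers, 0 of 6 measured lay above it, with sums of 102 to 124, 94.8 to 105 and 92.6 to 135. Parietal epithelium of Bowman's capsule, which normally carries Vcam1 and Krt8, had 3 of 6 markers above it, with sums of 125 to 160, 119 to 139 and 124 to 165. The S3 segment, the proximal stretch most prone to express Havcr1, had 1 of 6 above it, with sums of 61.8 to 85.3, 74.1 to 98.9 and 68.3 to 117. The summed level of 12 S1 and S2 markers was 2325 to 3379 in controls, 1024 to 2785 after LPS and 519 to 1391 in LPS/LPS. The upper end after LPS is replicate 3, and the other LPS arrays, at 1024 to 1475, lay below every control. A linear sum is weighted toward its most highly expressed genes. Gene by gene, 8 of the 12 were higher in LPS than in control, beside 47.1% of all genes, with a median log2 difference of 0.13. Without LPS replicate 3 these values were 5 of 12 and -0.16. In LPS/LPS against control 0 of 12 were higher, beside 55.8% of all genes, with a median of -0.43. The endothelial sum was higher than on any control on every LPS array and on every LPS/LPS array, and its part in the Havcr1 and Krt20 values was not tested.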

How the data were processed

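Each sample gave 1 array. The values are log2 levels, 1 for each probe set, as deposited by the authors. RMA and Partek 6.6 are named in the submitters' processing notes. Per the labels' protocols, 2 ng of RNA per sample was labelled by the WT Pico method. The sources used here do not give the background correction, the normalization between arrays or the build. RMA leaves background in dim probe sets, which can compress their differences.

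Of 41345 probe sets, 23521 had 1 gene symbol and were reduced to 22180 genes by the highest mean. The groups were compared with limma 3.58.1 in R 4.3.3 (lmFit, eBayes) in a single model of all 13 arrays without covariates. P-values were two-sided and adjusted by Benjamini-Hochberg over all genes, with a threshold of 0.05. Correlations over arrays used permutation tests with 1e+05 resamples, or exact ones within array classes, adjusted over 3 pairs. The fit was also run on simulated independent normal values with differences added to the LPS group. That simulation held no array classes, repeated values or outlying arrays, so it does not speak for these features of the data.

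The members and lists were chosen with earlier results of these data known. All members are named. Of each other list, members past the threshold are named, or else up to 2 with the lowest unadjusted p in LPS vs control and 2 in LPS/LPS vs LPS, of which the text gives a part. Slc34a1, Slc5a2 and Lcn2 are named throughout. Alternatives covered probe set choice, array class, array weights, scaling, moderation, the replicate number as a block and leaving out each array. The number of arrays limits the precision.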

Additional observations from a re-analysis of the deposited data

Results flagged for a closer look

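Within each group, the array farthest out was compared with its nearest neighbour by Dixon's gap ratio, for 27 groups of marker values and 24 groups of summed cell markers. Chance gives a gap this large in about 1 in 20 groups, and 3 of the 27 and 1 of the 24 had one.

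Havcr1 on control replicate 2 was 2.84, low beside the nearest control at 3.27. Without this array Havcr1 differed by 0.02 between LPS/LPS and control. Sox9 on LPS/LPS replicate 2 was 4.97, high beside the nearest array of its group at 4.55. Vim on control replicate 1 was 5.10, low beside the nearest control at 5.39. The summed level of loop, distal tubule and collecting duct markers on LPS replicate 3 was 709, beside 215 for the nearest LPS array.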

How the results depend on the processing

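None of the 9 measured markers passed the threshold under any alternative run. Of 681 marker values under alternatives 48 changed sign, and of 1971 values of other named genes 55 did, and none of these passed. Between LPS and control and between LPS/LPS and LPS, the differences of Havcr1, Krt20, Krt8 and Clu kept their sign under every alternative. So did those of Sox9 in both comparisons with control, and those of Krt20 and Vim between LPS/LPS and control. The second Vim probe set alone was not among these alternatives, and it gave -0.04 between LPS/LPS and control. The markers' median difference for LPS vs control was 0.33 in the wide arrays.

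The number of genes passing varied more. For LPS vs control, from 0, it was 30 with array weights, 7 with quantile normalization, 7 with a trended robust prior, 3 among genes above the background reference and 1 in narrow arrays. Leaving out 1 array gave 0 to 24, with 24 without LPS replicate 1, 5 without LPS replicate 3, 3 without LPS/LPS replicate 1, and 1 without control replicate 4 or LPS/LPS replicate 5. For LPS/LPS vs control, from 2, it was 4 with the class as a block, 4 with quantile normalization, 1 with median centring, and 0 over all probe sets, with only the groups compared, in wide arrays, in narrow arrays and without moderation. Leaving out 1 array gave 0 to 3, with 0 without control replicates 1 or 4 or LPS/LPS replicate 3. For LPS/LPS vs LPS, from 14, it was 41 with array weights, 7 over all probe sets, 3 in narrow arrays, 2 with only the groups compared, and 0 in wide arrays and without moderation. Leaving out 1 array gave 5 to 96, with 96 without LPS replicate 1, 5 without LPS/LPS replicates 2, 3 or 5, 6 without control replicate 4 or LPS replicate 4, and 7 without control replicate 3 or LPS/LPS replicate 4. The causes were not tested.

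Replicate numbers did not pair the arrays: deviations of same-numbered arrays correlated from -0.351 to 0.215, and 2 of 13 arrays matched best with their own number. With the replicate block 3, 0 and 4 genes passed in these comparisons.

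The Krt8 and Krt18 correlation ranged from -0.166 (without LPS/LPS replicate 5) to 0.295 on leaving out 1 array. That of Havcr1 and Krt20 ranged from 0.40 to 0.681 (without LPS replicate 1, adjusted permutation p = 0.0456), and was -0.17 after centring on group means. In narrow arrays Ccnd1 differed by 0.097 for LPS/LPS vs LPS and Lrp2 by -1.14 for LPS vs control. Klf6 passed for LPS vs control with array weights (adjusted p = 0.0357), as did Lcn2 (0.0138). Without LPS replicate 1 Lcn2 (0.0163) and Slc4a4 (0.0363) passed for LPS/LPS vs LPS. Scaling moved the median of all genes by less than 0.1.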
